A study of Homo sapiens with 6 samples.

Results

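The antigen presentation genes of MHC class I and class II are described here across 6 RNA sequencing libraries of OCI-AML2, an established human acute myeloid leukemia cell line. The set holds 34 genes of the 58233 gene identifiers counted, taken by symbol. It was chosen with earlier results of these data known. Of these, 29 had at least 1 count and 23 had enough counts to be tested, among 13028 tested genes in all. The study asked which genes differ in expression when IKZF1, which encodes the blood cell transcription factor Ikaros, is knocked out. Cells made knockout by CRISPR (IKZF1-ko, 3 libraries) were compared with cells that carried a non-targeting control (NT control, 3 libraries). All cells were OCI-AML2 grown in the same medium, and the labels name no drug, cytokine or time point. The labels speak both of several lines per group and of RNA isolated in triplicate, so the spread behind the p-values is that between libraries and may be technical.

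MHC class I molecules consist of an HLA heavy chain and the light chain B2M, and show peptides from inside the cell to CD8 T cells. The proteasome makes these peptides, the TAP transporter moves them into the endoplasmic reticulum, ERAP1 and ERAP2 trim them, and tapasin (TAPBP) helps load them. MHC class II molecules are pairs of alpha and beta chains that show peptides from endosomes to CD4 T cells, and the invariant chain CD74 guards their groove on the way there. CIITA, a coactivator that binds no DNA itself, switches class II genes on together with the RFX complex and NF-Y on their promoters, and NLRC5 plays the like role for class I. Antigen presentation in leukemia cells is studied because T cells recognise these molecules after allogeneic transplantation.

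The promoters of 4 genes are shown because they stand for the contrast the data hold: HLA-B and B2M (class I) and CD74 (the class II chaperone) were abundant in every library, and HLA-DRB1 (a class II chain) had a level far lower than these. Each is the stretch of 200 bases before the start annotated by RefSeq on GRCh38.p14, written 5′ to 3′ in the direction of the gene. Capitals mark every match on either strand to ATTGG, the Y box core bound by NF-Y, and to AANNGAAA, the core bound by interferon regulatory factors. The stretches lie at chr6:31357180-31357379, minus strand; chr15:44711317-44711516, plus strand; chr5:150412911-150413110, minus strand; and chr6:32589849-32590048, minus strand.
HLA-B: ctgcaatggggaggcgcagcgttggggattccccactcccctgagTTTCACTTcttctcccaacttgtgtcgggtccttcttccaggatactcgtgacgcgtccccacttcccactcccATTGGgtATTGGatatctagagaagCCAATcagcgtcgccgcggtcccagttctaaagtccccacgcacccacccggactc
B2M: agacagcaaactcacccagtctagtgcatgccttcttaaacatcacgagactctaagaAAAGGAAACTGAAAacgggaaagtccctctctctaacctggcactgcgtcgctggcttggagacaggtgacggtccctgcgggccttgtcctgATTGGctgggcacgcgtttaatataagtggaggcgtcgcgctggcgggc
CD74: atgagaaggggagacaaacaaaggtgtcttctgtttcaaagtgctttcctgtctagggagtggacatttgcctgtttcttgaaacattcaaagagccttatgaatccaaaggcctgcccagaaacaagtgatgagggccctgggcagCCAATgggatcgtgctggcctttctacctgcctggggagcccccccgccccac
HLA-DRB1: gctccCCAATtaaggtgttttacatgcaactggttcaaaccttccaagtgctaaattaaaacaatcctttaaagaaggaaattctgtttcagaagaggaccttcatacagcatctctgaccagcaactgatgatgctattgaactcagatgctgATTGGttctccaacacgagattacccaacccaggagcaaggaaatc

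A Y box core stood in all 4 stretches, while the interferon regulatory factor core stood in the HLA-B and B2M stretches and in neither of the other two. RefSeq windows of 300 bases, from 250 before to 50 after a start, were at hand for 29 of the 34 genes, 41 windows in all since some genes have more than 1. A Y box core was found in 20 of the 41 windows (48.8%) against 34.6% of all 35116 windows, and 4 of 4 class I chains and 5 of 6 class II chains with a window had it in at least 1. The core for interferon regulatory factors was found in 19 windows (46.3%) against 22.8%, with 4 of 4 class I and 2 of 6 class II chains. The X2 box core TGACG, for factors of the CREB family, was found in 14 windows (34.1%) against 24.6%. The kappa B sequence was found in 5 windows (12.2%) against 7.59%, and TGGGAA, a core sequence of Ikaros family factors, in 12 windows (29.3%) against 24%. All motifs were searched on both strands, windows of 1 gene are not independent, and a match says nothing of binding in these cells.

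Library totals ran from 11300519 to 18214328 counts. The first principal component of the tested genes carried 67.6% of the variance. On it NT control replicate 2 (39.5) and IKZF1-ko replicate 1 (50.1), called the pair below, stood apart from the other 4 libraries (-29.1 to -16.3). Within those 4, both IKZF1-ko libraries were deeper than both NT control libraries and lay nearer to the pair. IKZF1 mRNA was not lower in the knockout: the NT control libraries had 292 to 334 CPM (counts scaled to a library of 1000000) and the IKZF1-ko libraries 421 to 436, so the mRNA does not check the labels. The 7 myeloid leukemia line markers were all tested and summed to 1652 to 3027 CPM. T cell markers summed to at most 0.17 CPM with 3 of 5 genes at 0, and 3 of 3 erythroid markers were at 0. B cell markers summed to 13.6 to 18.0 CPM with MS4A1 at 0, NK cell markers to 29.98 to 45.1 CPM with KLRD1 and GNLY at 0, and dendritic cell markers to 8.23 to 15.7 CPM with XCR1 and CCR7 at 0. Of the dendritic cell list CLEC10A, a lectin of antigen-presenting cells, had 0 counts in all NT control libraries and 33, 29 and 27 counts in the IKZF1-ko libraries. It was called higher with the library set term (adjusted p = 2.4e-05, edgeR) and in the 4 libraries (adjusted p = 1.9e-05), but not on group alone (adjusted p = 0.15). It had enough counts to be tested only through the IKZF1-ko libraries, so these calls add little to the counts. FCER1A of the same list went the other way, with 4, 0 and 4 counts in the NT control and 0 in all IKZF1-ko libraries, and was not tested. The part of either gene in the values of the antigen presentation genes was not tested. In bulk libraries, fewer cells that express a gene and less RNA per cell cannot be told apart.

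Genotype was tested in 3 ways with the quasi-likelihood test of edgeR, adjusted over all genes tested with a threshold of 0.05: by group alone, by group with a term for the library set (the pair against the other 4), and in the 4 libraries without the pair. The class I chains dominated the set. Summed, HLA-B, HLA-C, HLA-E and B2M had 2245, 3925 and 2293 CPM of unscaled library totals in the NT control and 3752, 2467 and 2405 in the IKZF1-ko libraries, each in the order of replicates 1, 2 and 3, which is kept below. The pair of libraries that stood apart had the 2 highest sums, 1 in each group, and the groups overlapped.

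HLA-E, a nonclassical class I molecule that shows leader peptides of other class I chains to NKG2A on natural killer cells, had the highest level of all 34 genes (chr6:30489467-30494205, GENCODE 29). It had 795, 1782 and 821 CPM in the NT control and 1799, 1027 and 970.4 CPM in the IKZF1-ko libraries. NT control replicate 2 stood 2.2-fold above the mean of the other NT control libraries and IKZF1-ko replicate 1 stood 1.8-fold above the mean of the other IKZF1-ko libraries, so the groups overlapped, with means of 1133 ± 562 and 1265 ± 463 CPM (SD, n = 3). Outside that pair, both IKZF1-ko libraries lay above both NT control libraries, whereas within the pair the values were nearly equal. On group alone the log2 fold change of IKZF1-ko over NT control was 0.16 with an SE of 0.39 and an adjusted p of 1.00 (edgeR). HLA-E rose in the 4 libraries (log2 fold change 0.30, SE 0.04, adjusted p = 4.3e-06, edgeR) and with the library set term (0.21, SE 0.05, adjusted p = 0.017). With 1 surrogate variable, a factor estimated from all genes, as the second term the difference was 0.07 with an adjusted p of 0.54, and with the library set term the call was also lost without NT control replicate 1 or 3 or IKZF1-ko replicate 2 or 3.

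HLA-B and HLA-C are the classical heavy chains in the set, and whether their differences with genotype were unlike was not tested. HLA-B (chr6:31269491-31357188) had 481, 880.4 and 492 CPM in the NT control and 836, 549 and 521 CPM in the IKZF1-ko libraries. Its highest values were again those of the pair, and the IKZF1-ko value of the pair was the lower of the 2 while both other IKZF1-ko libraries lay above NT control replicates 1 and 3. HLA-B rose in the 4 libraries (log2 fold change 0.14, SE 0.04, adjusted p = 0.026, edgeR), a call lost with DESeq2 and without NT control replicate 1 or 3 or IKZF1-ko replicate 2. Its difference with the library set term was 0.06 with an SE of 0.05 and an adjusted p of 0.44.

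HLA-C (chr6:31268749-31272130) had 290, 400.3 and 293 CPM in the NT control and 330, 276 and 263 CPM in the IKZF1-ko libraries. IKZF1-ko was lower both within the pair and outside it, and the groups overlapped only through IKZF1-ko replicate 1. HLA-C fell with the library set term (log2 fold change -0.17, SE 0.05, adjusted p = 0.029, edgeR), and the difference was -0.22 with the surrogate variable (adjusted p = 0.0083). It was -0.11 in the 4 libraries, with an adjusted p of 0.083, and with the library set term only the fit without IKZF1-ko replicate 2 kept the call when a library was left out. HLA reads can map to several loci. Of the 50-base words in the annotated transcripts, 17.8% for HLA-B, 5.7% for HLA-C and 4.87% for HLA-E occur in another gene. Those of HLA-B lie mostly in the pseudogene AL671883.2 (15.1%), which had 0 counts. That pseudogene overlaps 17.8% of the exon bases of HLA-B on the opposite strand, so its share does not stand for a second locus. HLA-C holds 2.48% of the words of HLA-B. The alleles of this cell line may also differ from the reference sequence, and the part of either in the counts was not tested.

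B2M, the light chain all class I molecules share (chr15:44711487-44718877), had 663, 952 and 660.5 CPM in the NT control and 858, 601 and 627 CPM in the IKZF1-ko libraries. It shared 0 of its 50-base words with another gene, and it too was highest in the pair, by 1.4-fold within each group. Its difference was -0.12 with the library set term (SE 0.04, adjusted p = 0.068, edgeR) and -0.11 in the 4 libraries (adjusted p = 0.073), neither past the threshold, and -0.19 with the surrogate variable (adjusted p = 0.0089). HLA-F, another nonclassical heavy chain, was listed at 0 in all 6 libraries. It overlaps HLA-F-AS1 on the opposite strand, which had 3 to 21 counts per library. Other genes hold 21.6% of its 50-base words, led by AL645939.1 (13%), which also overlaps it on the opposite strand.

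**Figure D1:**
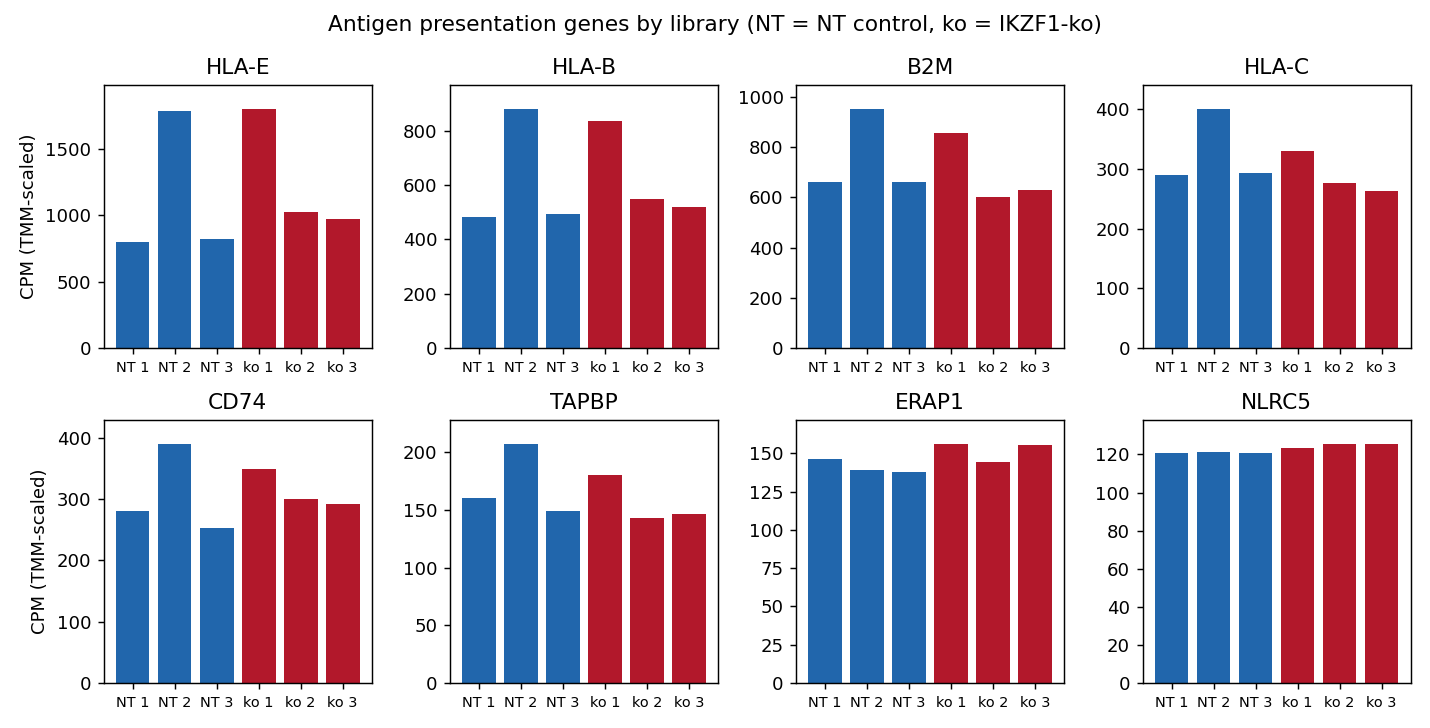
Level in CPM (vertical axis, starting at 0) of class I chains, CD74, TAPBP, ERAP1 and NLRC5 in each library (horizontal axis, NT control replicates 1 to 3, then IKZF1-ko replicates 1 to 3). Each bar is 1 library; NT control replicate 2 and IKZF1-ko replicate 1 are the 2 tallest bars for HLA-E, HLA-B, HLA-C, B2M and CD74.

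The pair of libraries that were high for class I chains were also high in the summed level of the 8 listed genes of the hypoxia response. That sum was 1233 and 1378 CPM there and 424 to 514 CPM in the other 4. VEGFA of that list did not have its 2 highest values in the pair. The myeloid leukemia line markers summed to 2984 and 3027 CPM in the pair and 1652 to 1948 CPM in the others. AZU1 held much of that sum, at 1677 and 1620 CPM in the pair and 688 to 857 CPM in the others. CSF3R, ELANE and CD33 were also highest in the pair, MPO and PTPRC were not, and SPI1 had its 2 lowest values there. The part of either list in the class I values was not tested. Of the 23 genes tested, 12 had their 2 highest values in the pair (52.2%, against 32.5% of all genes tested), and 2, TAP2 and CD86, had their 2 lowest values there (8.7%, against 31.5%).

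The genes of peptide supply and loading had a narrower range between libraries than HLA-E and HLA-B. NLRC5, the class I coactivator (chr16:56989485-57083531), had 120.9, 121.4 and 120.9 CPM in the NT control and 123.6, 125.4 and 125.7 CPM in the IKZF1-ko libraries. It was nearly flat while the class I chains varied, and its groups did not overlap. The size of that gap was small: the log2 fold change was 0.04 with the library set term, with a 95% interval from -0.06 to 0.14 and an adjusted p of 0.60 (edgeR). TAPBP, tapasin, had 160, 207 and 149 CPM in the NT control and 180.1, 143 and 146 CPM in the IKZF1-ko libraries. Its highest values were those of the pair, and its difference of -0.13 with the library set term had an adjusted p of 0.088, while it was -0.18 with the surrogate variable (adjusted p = 0.029). ERAP1, which trims peptides, had 147, 139 and 138 CPM in the NT control and 156, 144 and 155 CPM in the IKZF1-ko libraries, with groups that overlapped and an adjusted p of 0.20 with the library set term.

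The transporter subunits went opposite ways along the library difference. TAP1 ranged from 48.6 to 64.6 CPM and had its highest values in the pair, whereas TAP2 ranged from 27.2 to 35.5 CPM and had its lowest values there. Neither passed the test for genotype with the library set term, at 0.04 for TAP1 (adjusted p = 0.73, edgeR) and -0.09 for TAP2 (adjusted p = 0.47). TAP2 shares 32.3% of its exon bases with the readthrough gene AL669918.1, which had 0 counts. The low members were ERAP2, at 4.86 to 8.42 CPM, and the tapasin relative TAPBPL, at 5.25 to 7.10 CPM. None of the 7 loading and control genes of class I passed the adjusted threshold of edgeR in any of the 3 fits, and 1, TAPBP, had an unadjusted p under 0.05, with the library set term.

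The class II chains were low in both groups, and 5 of the 7 had too few counts to be tested. All 7 together had 392 counts over the 6 libraries, against 253423 for the class I chains, and had 4.19, 5.67 and 4.78 CPM of unscaled library totals in the NT control and 3.74, 4.61 and 3.76 in the IKZF1-ko libraries. HLA-DRB1, the beta chain of HLA-DR, held most of them, with 32, 58 and 25 counts in the NT control and 38, 65 and 45 counts in the IKZF1-ko libraries. That is 2.19 to 3.96 CPM, with groups that overlapped and a log2 fold change of -0.02 with the library set term (95% interval -0.52 to 0.49, adjusted p = 0.98, edgeR). HLA-DRB5, a close copy that only some haplotypes carry, was listed at 0 in all libraries, and 8.64% of the 50-base words of HLA-DRB1 occur in it.

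HLA-DRA, the alpha chain that every HLA-DR molecule needs, had 3, 7 and 4 counts in the NT control and 2, 1 and 2 counts in the IKZF1-ko libraries, and was not tested. Set against the floor of 3 counts, which is 0.164 to 0.262 CPM in these libraries and covers counting error only, 4 of its 6 values were at or under it. HLA-DPA1, the alpha chain of HLA-DP, had 12, 16 and 24 counts in the NT control and 9, 15 and 12 counts in the deeper IKZF1-ko libraries. On the CPM scale that is 1.02, 1.09 and 2.10 against 0.601, 0.819 and 0.709, so the groups did not overlap. It was 1 of 2 tested members of the set without overlap, with NLRC5 (8.7%, against 9.35% of all genes tested). The log2 fold change of HLA-DPA1 was -0.97 with the library set term (95% interval -1.74 to -0.19), and its adjusted p was 0.091 there, 0.12 in the 4 libraries and 1.00 on group alone (edgeR). Without NT control replicate 3 the difference was -0.59 with the library set term, -0.41 in the 4 libraries and -0.56 on group alone. Its partner HLA-DPB1 had 1 count in all. HLA-DQB1 had 1 to 8 counts per library and HLA-DQA1 was listed at 0.

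CIITA, the switch for these genes, was near the floor. It had 3, 4 and 3 counts in the NT control and 3, 3 and 4 counts in the IKZF1-ko libraries. At 3 or 4 counts in every library it did not pass the filter and was not tested. The 3 subunits of the RFX complex, which CIITA needs on the promoter, were present. RFXANK had 94.1, 103 and 80.8 CPM in the NT control and 86.7, 99.2 and 87.5 CPM in the IKZF1-ko libraries, RFX5 ranged from 81.3 to 91.8 CPM and RFXAP from 9.96 to 14.3 CPM. The groups overlapped for all 3, and none passed the test of edgeR in any of the 3 fits, with 0 at an unadjusted p under 0.05.

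CD74 was high although the class II chains it guards were not. It had 280.2, 390.2 and 253 CPM in the NT control and 349, 299.6 and 292 CPM in the IKZF1-ko libraries (chr5:150401637-150412929). As for HLA-B, the pair held the highest values with the IKZF1-ko library the lower of the 2, and both other IKZF1-ko libraries lay above both other NT control libraries. CD74 rose in the 4 libraries (log2 fold change 0.15, SE 0.05, adjusted p = 0.030, edgeR), a call lost with DESeq2 and without NT control replicate 3 or IKZF1-ko replicate 2. The difference was 0.04 with the library set term (SE 0.06, adjusted p = 0.71), and with the surrogate variable it was -0.01 (adjusted p = 0.93).

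CTSS, the cathepsin that cuts CD74 down in endosomes, had 77.2, 93.3 and 77.5 CPM in the NT control and 99.8, 79.4 and 89.3 CPM in the IKZF1-ko libraries. The groups overlapped, and its difference of 0.11 with the library set term had an adjusted p of 0.20 (edgeR). The peptide editors were low, and HLA-DMB was near the floor. HLA-DMA had 0.946 to 1.74 CPM, its partner HLA-DMB 2 to 7 counts per library, and HLA-DOB, a subunit of the DM inhibitor HLA-DO, 0.735 to 1.84 CPM. With the library set term HLA-DMA was at 0.39 (adjusted p = 0.50, edgeR) and HLA-DOB at -0.05 (adjusted p = 0.96). The other HLA-DO subunit, HLA-DOA, was listed at 0, and so was IFI30, a thiol reductase of endosomes. IFI30 shares 40.2% of its exon bases with the readthrough gene AC007192.1 on the same strand, which was also at 0.

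**Figure D2:**
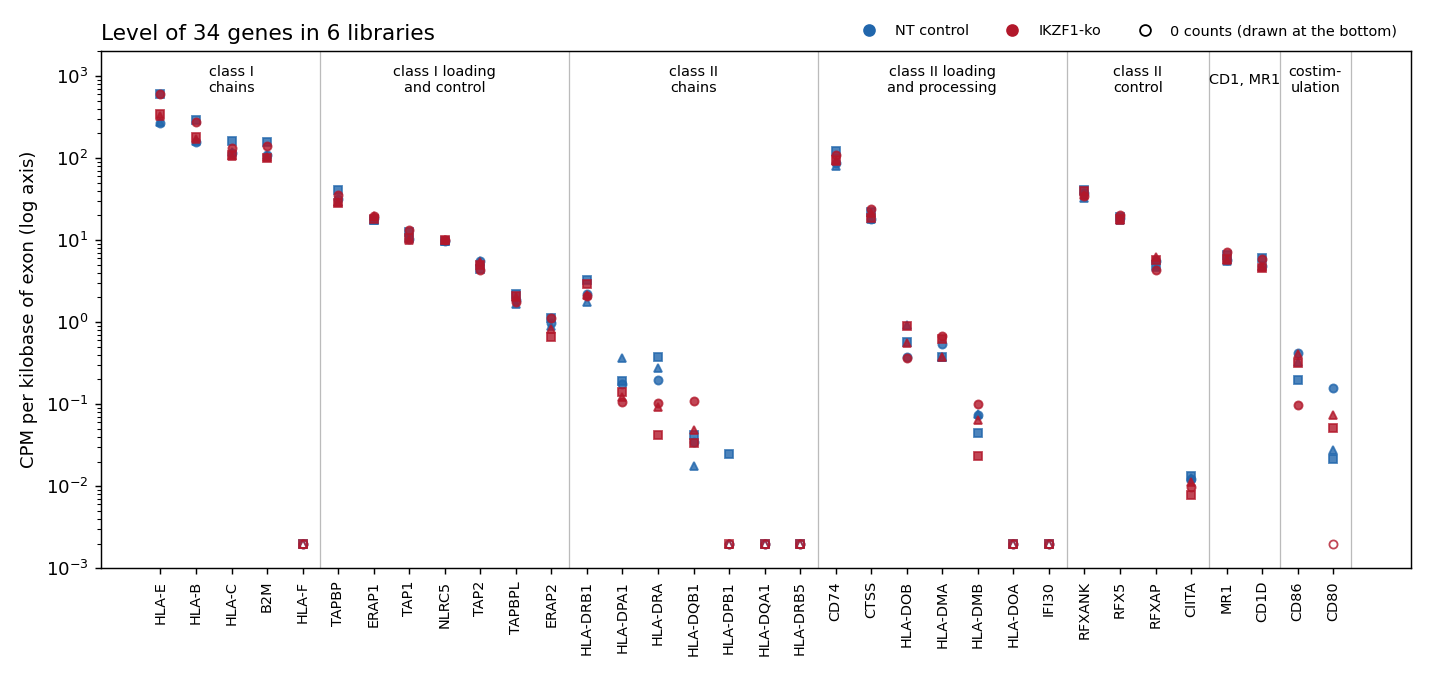
Level of the 34 genes in CPM per kilobase of annotated exon (vertical axis, log scale) by role (horizontal axis), 1 point per library; open points at the bottom mark 0 counts. HLA-E, HLA-B, HLA-C and B2M have the highest means and span 98.9 to 605, HLA-F is at 0, CD74 spans 79.5 to 123, and HLA-DRB1 leads the class II chains, at 1.78 to 3.22.

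Per kilobase of annotated exon, which allows only a rough comparison of genes, HLA-E came first. Its mean was 403 CPM per kilobase over the 6 libraries (267 to 605). HLA-B followed at 205 (158 to 289), HLA-C at 123 (105 to 160), B2M at 120 (98.9 to 157) and CD74 at 97.5 (79.5 to 123). Over all libraries the range of each overlapped that of its neighbour. Within each of the 6 libraries HLA-E lay above HLA-B, HLA-B above HLA-C and B2M above CD74, while HLA-C lay above B2M in 5 of 6. RFXANK (36.7) and TAPBP (32.5) came next, and their ranges overlapped as well, with RFXANK above TAPBP in 5 of 6 libraries, but neither reached the range of CD74. NLRC5 was at 9.93, HLA-DRB1 at 2.39, HLA-DPA1 at 0.184 and HLA-DRA at 0.181, while CIITA was at 0.0112. Exon length was taken over all annotated isoforms, which lowers the value of genes with long minor isoforms. It was 6.079 kb for B2M, 2.975 kb for HLA-E and 20.757 kb for CIITA. The order given, such as the place of B2M, depends on these lengths and may not hold for the transcripts present.

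MR1, which shows vitamin B metabolites to mucosal-associated invariant T cells, had 54.0, 62.1 and 51.4 CPM in the NT control and 67.0, 54.6 and 53.8 CPM in the IKZF1-ko libraries. CD1D, which shows lipids to natural killer T cells, had 10.8, 13.7 and 10.8 CPM in the NT control and 13.2, 10.4 and 10.6 CPM in the IKZF1-ko libraries. Both were highest in the pair, and their groups overlapped. CD86, a ligand of CD28 that gives T cells their second signal, had 1.44, 0.683 and 1.14 CPM in the NT control and 0.334, 1.09 and 1.42 CPM in the IKZF1-ko libraries, lowest in the pair. The related ligand CD80 had 0 to 6 counts per library, and TIMMDC1 on the opposite strand overlaps 24.9% of its exon bases. MR1, CD1D and CD86 did not pass the test of edgeR in any of the 3 fits.

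Counted over the whole set, few genes passed the test for genotype. On group alone 0 of 23 were called by edgeR, against 0% of all genes tested, with 1 (HLA-DPA1) at an unadjusted p under 0.05 against 3.5% of all genes, and 0 by DESeq2 or limma-voom. With the library set term 1 gene was higher (HLA-E) and 1 lower (HLA-C), which is 8.7% of 23 against 13.5% of all genes tested (6.93% higher and 6.62% lower), and 5 had an unadjusted p under 0.05, against 27.4% of all genes. In the 4 libraries 3 were higher (HLA-E, HLA-B and CD74) and 0 lower, which is 13% against 14.7% of all genes tested (7.64% higher and 7.1% lower), and 6 had an unadjusted p under 0.05, against 27.5% of all genes. The surrogate variable gave 3 lower (HLA-C, B2M and TAPBP) and 0 higher, against 8.04% of all genes called in either direction. With at most 3 of 23 genes called in any of these fits, the shares are too coarse to set the members apart from all genes. The median size of the log2 fold change was 0.08 over the 23 genes and 0.12 over all genes with the library set term, and the signed medians were 0.00 and 0.00. For 19 of the 23 genes the 95% interval with that term lay within a 1.5-fold change in either direction, and for 19 the fitted difference was under 0.2.

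**Figure D3:**
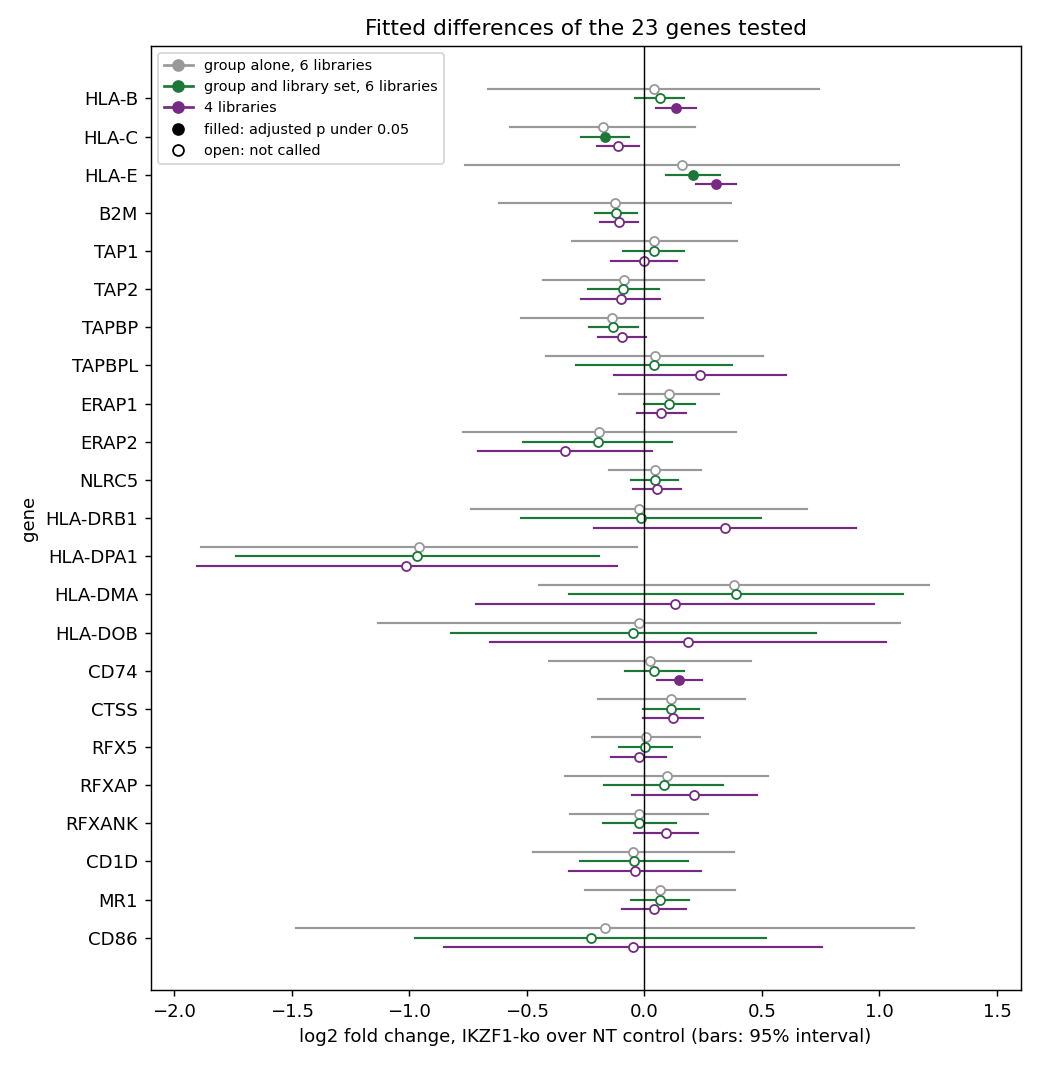
Log2 fold change of IKZF1-ko over NT control (horizontal axis) with 95% intervals for the 23 genes tested (vertical axis), for the 3 fits: group alone, library set term, and 4 libraries. Filled points passed an adjusted p of 0.05: HLA-B, HLA-E and CD74 in the 4 libraries, HLA-E and HLA-C with the library set term, and 0 on group alone.

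Other genes of the pathway were taken from 9 lists, and of their 50 tested genes 11 were lower with the library set term (22%, against 6.62% of all genes tested) and 1 was higher (2%, against 6.93%). The lists were chosen with earlier results of these data known, so these shares describe the lists and do not test them. Of the 4 chaperones of class I assembly in the endoplasmic reticulum, 3 fell and 0 rose, both with the library set term and in the 4 libraries. CALR, calreticulin, which holds the heavy chain during loading, had 1892, 1598 and 1940 CPM in the NT control and 907, 1126 and 1092 CPM in the IKZF1-ko libraries. All IKZF1-ko libraries lay below all NT control libraries, within the pair as well as outside it. CALR fell by 0.80 on the log2 scale (SE 0.04, adjusted p = 1.5e-09, edgeR, library set term), and on group alone its adjusted p was 0.31. BCAP31, an export receptor of the endoplasmic reticulum, fell by 0.32 (adjusted p = 7.0e-04) and PDIA3, the disulfide isomerase of the loading complex, fell by 0.19 (adjusted p = 0.0087). The summed level of the 4 genes was 3142 to 3476 CPM in the NT control and 2361 to 2525 CPM in the IKZF1-ko libraries.

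For the proteasome, 1 of 6 genes of the immunoproteasome and the activators fell and 0 rose with the library set term. That gene was PSME3, the subunit of the nuclear activator, at -0.28 (adjusted p = 0.0016, edgeR), and with the surrogate variable it was -0.12 with an adjusted p of 0.20. Of the 3 catalytic subunits of the standard proteasome, PSMB5 (-0.22, adjusted p = 0.011) and PSMB6 (-0.20, adjusted p = 0.023) fell with the library set term. With the surrogate variable their adjusted p was 0.052 and 0.15. None of 7 cytosolic and endosomal peptidases passed the adjusted threshold of edgeR in any fit, with 2 at an unadjusted p under 0.05 with the library set term. The most abundant of them, NRDC and NPEPPS, stood at 0.02 and 0.14.

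Of the 10 listed proteases and turnover genes of the class II route, 8 were tested, and 3 fell and 1 rose with the library set term. The endosomal proteases CTSB (-0.25, adjusted p = 0.0044, edgeR), CTSD (-0.34, adjusted p = 0.016) and CTSL (-0.24, adjusted p = 0.020) fell, and CTSZ rose (0.48, adjusted p = 0.0024). CTSD was at -0.21 in the 4 libraries with an adjusted p of 0.099. Among the 4 NF-Y and CREB genes that work beside RFX, NFYC, a subunit of NF-Y, fell with the library set term (-0.22, adjusted p = 0.035), but its adjusted p was 0.095 in the 4 libraries and 0.26 with the surrogate variable.

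Interferon gamma is the best known inducer of both pathways, and 8 of its 9 listed signalling genes were tested. IRF1, a factor that acts on class I promoters, had 9.42, 16.9 and 10.3 CPM in the NT control and 10.1, 6.94 and 6.68 CPM in the IKZF1-ko libraries. IKZF1-ko was lower both within the pair and outside it, and the groups overlapped through IKZF1-ko replicate 1. IRF1 fell with the library set term (log2 fold change -0.62, SE 0.12, adjusted p = 0.0024, edgeR) and was the only gene of the list called there, at 1 of 8 lower and 0 higher. IRF1 also fell in the 4 libraries (log2 fold change -0.53, adjusted p = 0.018, edgeR), where IRF8 rose by 0.16 (adjusted p = 0.017), a gene named after its value was seen. On group alone 0 genes of the 9 lists were called.

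**Figure D4:**
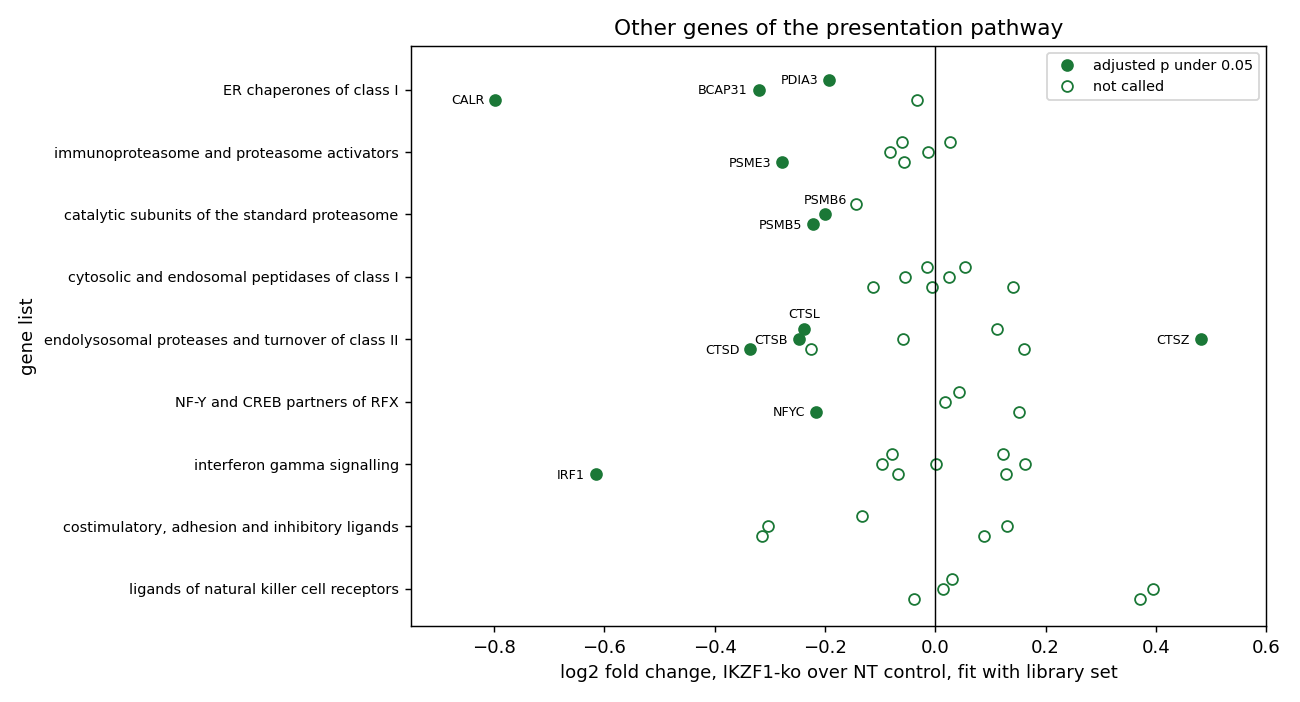
Log2 fold change of IKZF1-ko over NT control with the library set term (horizontal axis) for the tested genes of 9 pathway lists (vertical axis), 1 point per gene. Filled points passed an adjusted p of 0.05; CALR lies lowest at -0.80, and CTSZ at 0.48 is the only filled point above 0.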

How the data were processed

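Stranded libraries of polyadenylated RNA were read on a NovaSeq sequencer, as the labels' protocols state. The deposited table holds the authors' whole-number read counts per gene, 1 column per library, used as deposited, and 0 columns of other samples. Per the submitters' processing notes, reads were handled with Trimmomatic and STAR on GRCh38; for the counter, strand setting and annotation the value is not given in the sources used here. Columns were assigned by library name and groups by title. GENCODE 29 held 57895 of the identifiers and gave positions and exon lengths, and 57392 had a symbol.

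edgeR 4.0.16 in R 4.3.3 (filterByExpr, TMM, quasi-likelihood F test, two-sided, Benjamini-Hochberg over all genes tested, threshold 0.05) gave the tests, which were checked on simulated data. The filter kept 13028 genes, and 12951 in the 4 libraries. CPM values use TMM factors. The library set is the sign of the first principal component of log2 CPM (prior count 2), so it was defined from the same counts and its p-values take it as known. Alternatives were RLE and library size scaling, other filters, DESeq2 1.42.0, limma-voom in limma 3.58.1 with and without sample quality weights, 1 surrogate variable (sva 3.50.0), a replicate block and leaving out each library. Members, lists and tests were chosen with earlier results of these data known. Every tested member is named. Values per library are given for called members and the 3 most abundant of each role, and of other lists up to 3 called genes by p, or the 2 most abundant. Motifs were searched in RefSeq promoter windows, and words of 50 bases compared between GENCODE transcripts. Figures used matplotlib 3.10.9.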

Additional observations from a re-analysis of the deposited data

How the results depend on the processing

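On group alone, the count of genes called was 0 with edgeR, 8 with no filter, 71 with DESeq2, 1 with limma-voom and 407 with sample quality weights; members called stayed at 0 under each. Among the 4 libraries, DESeq2 called 825 genes (main 1908) and 1 member higher, and limma-voom called 1 member lower. Under the library set term DESeq2 called 1159 genes and the surrogate variable 1047 (main 1765). There, members lower were 2 with RLE scaling, 2 with limma-voom and 3 with the surrogate variable (HLA-C, B2M and TAPBP), which left 0 higher. The causes were not tested.

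Leaving out 1 library, the 4-library fit called 1 to 3 members higher and 0 to 1 lower, and the library set fit called 811 to 1943 genes, 0 to 3 members higher and 0 to 1 lower. Without NT control replicate 2 or IKZF1-ko replicate 1, the library set term absorbs the library of the pair that is left. Both fits therefore repeat the 4-library comparison and are no separate check. As in the 4 libraries, HLA-B and CD74 were then called higher and HLA-C was not called. The upper ends of 1943 genes and 3 members higher came from these fits, as did some ends of the ranges given below for the library set term. A lone sample left in a group was assumed to vary like the others. The HLA-E difference in the 4 libraries passed the test under every other scaling, filter and tool run there. Leaving out 1 library it was 0.26 to 0.35. None of these fits had a term for the first principal component, on which both IKZF1-ko libraries lay nearer to the pair, where HLA-E was highest. The part of that position in the difference was not tested. With the surrogate variable in 6 libraries the difference was 0.07.

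Replicate numbers did not pair the libraries: deviations of same-numbered libraries correlated at -0.66, -0.69 and 0.59. With the replicate block 0 genes and 0 members were called on group alone, and HLA-DRB1 was at 0.0038.

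Signs turned for differences near 0. On group alone RFX5 was at -0.0045 with RLE scaling, -0.0051 with DESeq2 and -0.023 with quality weights, with which TAP1 was at -0.0027, HLA-DRB1 at 0.28, HLA-DOB at 0.23 and RFXANK at 0.077. TAP1 was at 0.0051 in the 4 libraries with no filter. With the library set term RFX5 was at -0.0050 with RLE scaling and -0.0052 with DESeq2, and HLA-DOB at 0.0012 with limma-voom. With the surrogate variable HLA-B was at -0.041, CD74 at -0.013, TAP1 at -0.0044, RFX5 at -0.012 and HLA-DOB at 0.033.

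Leaving out each library gave these ranges of log2 fold changes by group alone: HLA-B -0.21 to 0.38, HLA-E -0.18 to 0.65, B2M -0.30 to 0.072, TAP1 -0.092 to 0.13, TAPBP -0.25 to 0.018, TAPBPL -0.049 to 0.17, HLA-DRB1 -0.20 to 0.25, HLA-DOB -0.42 to 0.34, CD74 -0.097 to 0.23, RFX5 -0.049 to 0.035, RFXAP -0.016 to 0.23, RFXANK -0.11 to 0.059, CD1D -0.17 to 0.080, MR1 -0.043 to 0.15 and CD86 -0.57 to 0.22. For the 4 libraries the ranges were TAP1 -0.041 to 0.039, HLA-DMA -0.29 to 0.44, HLA-DOB -0.32 to 0.94, RFX5 -0.066 to 0.019, RFXANK -0.011 to 0.21 and CD86 -0.24 to 0.14. Under the library set term they were TAP1 -0.00042 to 0.071, TAPBPL -0.057 to 0.24, HLA-DRB1 -0.23 to 0.34, HLA-DOB -0.43 to 0.24, CD74 -0.029 to 0.15, RFX5 -0.024 to 0.037, RFXAP -0.019 to 0.21 and RFXANK -0.11 to 0.095. HLA-DPA1 kept its sign in all 3 fits, at -1.14 to -0.56 by group alone, -1.45 to -0.41 in the 4 libraries and -1.25 to -0.59 under the library set term. CIITA and 5 of the 7 class II chains had too few counts to be tested, and the part of depth in this was not tested.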

Other observations

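The ligands that natural killer cells and activating T cell receptors read beside MHC were measured as well. Of 10 listed ligands of natural killer cell receptors, 5 were tested, and 0 passed the adjusted threshold of edgeR with the library set term, with 1 at an unadjusted p under 0.05. NECTIN2 and PVR, ligands of DNAM-1, led the list at 88.8 to 101 CPM and 18.8 to 32.2 CPM. PVR was lowest in the pair of libraries that stood apart, at 18.8 CPM in each, where class I chains were highest. Its log2 fold change was 0.01 with the library set term (adjusted p = 0.93, edgeR). NECTIN2 was lowest in the pair too. MICA of the same list went the other way, at 12.3 and 14.6 CPM in the pair and 5.01 to 8.45 CPM in the others. MICA was the gene with the unadjusted p under 0.05, at 0.40 (adjusted p = 0.069, edgeR), and was named after its value was seen. ULBP1, a ligand of NKG2D, rose in the 4 libraries (log2 fold change 1.38, adjusted p = 0.0498, edgeR), from 0.424 and 0.612 CPM in the NT control to 1.36 and 1.36 CPM in the IKZF1-ko libraries. It was named after its value was seen, and IKZF1-ko replicate 1 had 0 counts of it. In the 4 libraries it passed the filter only through the IKZF1-ko libraries, so that call carries little weight. With the library set term ULBP1 was at 0.37 with an adjusted p of 0.75 (edgeR). ULBP3 and RAET1L were at 0 in all libraries.

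Of 10 costimulatory, adhesion and inhibitory ligands, 5 were tested, and 0 passed with the library set term, with 2 at an unadjusted p under 0.05. CD70, the ligand of CD27, had 133, 188 and 134 CPM in the NT control and 187, 145 and 149 CPM in the IKZF1-ko libraries, and TNFSF9, the ligand of 4-1BB, had 17.1, 32.7 and 14.3 CPM and 34.4, 18.0 and 17.4 CPM. Both were highest in the libraries that stood apart, as the class I chains were, and the groups overlapped. CD274, which encodes PD-L1, had at most 0.401 CPM.

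Of the 8 hypoxia response genes, 7 were tested, and 4 rose and 0 fell with the library set term, where 6.93% of all genes tested were called higher and 6.62% lower. This list too was chosen with earlier results of these data known. VEGFA rose by 0.41 (adjusted p = 0.0015, edgeR), NDRG1 by 0.15 (adjusted p = 0.035) and PFKFB4 by 0.30 (adjusted p = 0.037). With the surrogate variable VEGFA remained called at 0.38 (adjusted p = 0.0040), while PFKFB4 was at -0.14 and NDRG1 at -0.05.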
